A study of Mus musculus with 4 samples.

Results

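Arginase, arginine transport and polyamine genes were examined in macrophages grown from mouse bone marrow, as 10 named genes of the 52550 in the deposited expression table. They are the arginases Arg1 and Arg2, the arginine carrier Slc7a2, the polyamine synthesis genes Odc1, Amd1, Srm and Sms, the ornithine decarboxylase regulators Oaz1 and Azin1, and the polyamine acetylase Sat1. They were chosen by name for their step in the pathway, with earlier results of these data known, and each was found in the table. RNA was sequenced from 4 libraries, namely wild type (WT) and OGT knockout cells at 0 h and at 24 h, with 1 library per group. All cells had grown for 7 days in M-CSF at 20 ng/mL, the growth factor that drives macrophage differentiation, and the protocol gives IL-4 at 20 ng/mL for 24 h. The 0 h samples bear the same IL-4 treatment label, and their time label is the reason for taking them as unstimulated. OGT is the enzyme that places single N-acetylglucosamine sugars on proteins inside the cell. The sources used here do not give how the knockout was made, nor the strain, age and number of mice.

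Arginase splits arginine into urea and ornithine, and strong arginase expression is a textbook mark of mouse macrophages activated by IL-4. Ornithine is decarboxylated to putrescine, which receives aminopropyl groups from decarboxylated S-adenosylmethionine to become spermidine and then spermine. The pathway is checked by antizyme, a protein that sends ornithine decarboxylase to the proteasome, and polyamines raise antizyme synthesis by promoting a programmed frameshift on its mRNA.

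With no second library in any group, no difference could be set against the variation between cultures, and every difference below is a description of these libraries. The labels name no 24 h culture that went without IL-4, so the cytokine and the added day in culture cannot be told apart. Values are FPKM, fragments scaled to transcript length and library size, which can be compared between genes because they are scaled to length. Library totals lay between 338704 and 353093 FPKM. From the smallest values of genes with 1 exon, 1 FPKM was estimated to stand for 20.2 to 22.0 fragments per kilobase of transcript, and the true depth is unknown. Ogt itself stood at 27.4 FPKM (WT) and 14.2 (knockout) in the 0 h libraries, and at 29.8 and 14.5 in the 24 h libraries. The knockout values were thus 51.8% of WT at 0 h and 48.5% at 24 h. A value over the whole gene does not show how, or in how many of the cells, the gene was altered, and this was not tested.

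The labelled cell type was checked on 10 macrophage markers, all of which were at 1 FPKM or more in every library, with Cd68 at 1009, 965, 992 and 966 FPKM (in the order WT 0 h, WT 24 h, knockout 0 h, knockout 24 h, used throughout). Past 2-fold, 5 of the 10 were lower at 24 h in WT and 6 in the knockout, such as Cd14 at 198, 15.0, 224 and 25.9 FPKM and Adgre1 at 1150, 361, 1027 and 378. Of all genes at 1 FPKM or more in either library compared, 6.26% were 2-fold lower in WT and 5.99% in the knockout. Summed over the 10, of which Lyz2 makes up most, macrophage markers came to 18835, 6499, 15804 and 6521 FPKM. The summed level of 10 neutrophil markers was 3295, 1067, 2129 and 717 FPKM, and that of 6 monocyte markers was 58.7, 31.7, 40.0 and 21.5. The neutrophil and monocyte sums, and those of fibroblast, megakaryocyte, B cell and mast cell or basophil markers, were lower at 24 h than at 0 h in each genotype and lower in the knockout than in WT at each time. For mast cells or basophils they were 6.54, 4.43, 1.19 and 0.71 FPKM. S100a8, S100a9 and Ngp make up most of the neutrophil sum. Of 9 neutrophil markers at 1 FPKM or more in either library compared, 8 were lower at 24 h in each genotype, and Cxcr2 was higher. In the knockout 8 were lower than in WT at 0 h and 7 at 24 h. Csf3r was higher in it at both times (45.2, 45.0, 59.4 and 48.9 FPKM). The monocyte marker Ccr2 was at 14.3, 16.0, 16.3 and 9.36 FPKM, against the direction of its sum in WT over 24 h and between genotypes at 0 h. Of 5 B cell markers only Cd79b reached 1 FPKM, and no T cell or erythroid marker did. No marker was at 0 in all 4 libraries. Fewer cells of a type and less RNA per cell cannot be told apart in such bulk samples, and the part of these other cells in the values below was not tested.

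Sequence bears on how far the values can be read. Several of the 10 genes have near-identical copies elsewhere in the genome, most of them processed pseudogenes, and fragments from gene and copy may not be separable. The plainest case is Oaz1, which encodes antizyme (chromosome 10, 80826656 to 80829290 in GRCm38, + strand). Its pseudogene Oaz1-ps (chromosome 17, 17345456 to 17346140) matched 680 of 681 aligned bases of the longest coding model, with a gap of 4 bases. That gap falls on the frameshift site. The lines below show the site from annotated transcripts in GENCODE M21, with the site in capitals and 30 bases on each side.
Oaz1, longest coding model: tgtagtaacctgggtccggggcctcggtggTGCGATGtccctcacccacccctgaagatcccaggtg
Oaz1, a coding model lacking 1 base of the site: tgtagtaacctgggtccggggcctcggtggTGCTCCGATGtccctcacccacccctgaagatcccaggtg
Oaz1-ps: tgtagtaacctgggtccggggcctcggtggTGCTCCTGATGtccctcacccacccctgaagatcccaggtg
The pseudogene holds the site whole, with its in-frame stop TGA, and the 30 bases on each side are the same letters in gene and pseudogene. Of 6 coding models of Oaz1, 1 lacks 4 bases of the site and 3 lack 1 base, and these gaps keep the annotated reading frame open. Only 1 coding model has the whole site, and 1 does not contain the region. A further model of Oaz1, which keeps an intron and is not coding, also has the whole site. Gene and pseudogene thus share the site, and the gap reflects how the longest coding model was annotated.

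The promoters of 5 of the 10 genes were found in the RefSeq table (GRCm38.p6), with 2 starts for Sms. Entries for Arg1, Arg2, Slc7a2, Srm and Azin1 were not found. The stretches below lie before the RefSeq transcription start, read on the gene's strand, and are shown because Odc1, Amd1 and Sms had higher values at 24 h and Sat1 lower ones. Capitals mark GC boxes (GGGCGG on either strand), a TATA-like run (TATATAA on either strand, overlapping itself) and, in Sms, an E-box (CACGTG).
Odc1, chr12:17544693-17544792, + strand: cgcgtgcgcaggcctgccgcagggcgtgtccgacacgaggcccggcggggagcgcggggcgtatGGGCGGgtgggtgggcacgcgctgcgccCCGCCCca
Amd1, chr10:40302189-40302288, − strand: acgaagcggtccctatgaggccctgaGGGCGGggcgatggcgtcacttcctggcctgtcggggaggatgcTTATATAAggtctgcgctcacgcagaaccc
Sms, chrX:157492418-157492517, − strand: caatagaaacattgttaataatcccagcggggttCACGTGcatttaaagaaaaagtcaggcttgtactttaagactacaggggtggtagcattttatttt
Sat1, chrX:155216450-155216549, − strand: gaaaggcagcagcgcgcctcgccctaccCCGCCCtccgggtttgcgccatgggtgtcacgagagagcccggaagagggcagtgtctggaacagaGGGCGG
Over the whole 250 bases before the start, Odc1 held 4 GC boxes and was 80% G and C, where the median of all 32851 windows was 52.4%. The window of the other Sms start, which lies within the gene and is not printed, was 75.2% G and C and also held 4. That of the Sms start shown was 47.2% G and C, below the median, with 64.4% for Amd1, 59.6% for Sat1 and 58% for Oaz1. Amd1 held 1 GC box and Sat1 2, and 32.7% of all windows hold at least 1. CCAAT, found in 33.8% of windows, occurred once each in Oaz1 and Sms, and TATAAA (12.4%) in none. The TATA-like run of Amd1 occurs in 3.04% of windows. Of the STAT6-type motif (TTC and GAA with 4 bases of any kind between them), the E-box CACGTG, the CRE TGACGTCA and the EGR-type GCGTGGGCG, searched on both strands over 300 bases, only the E-box was found in these promoters, in Sms alone (all windows: 6.95%, 7.15%, 1.79% and 0.61%). A match is a string of letters, not a bound site.

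Arg1, the cytosolic arginase (ENSMUSG00000019987, chromosome 10, 24915221 to 24927484, − strand), was measured at 0.12 FPKM (WT) and 0.07 (knockout) in the 0 h libraries, and at 240.4 and 219 in the 24 h libraries. It was thus almost undetected in both genotypes at 0 h and among the highest genes of the table at 24 h, in place 170 of 52550 in WT and 177 in the knockout. On the scale of FPKM + 1 it was 215-fold higher at 24 h in WT (log2 7.75) and 207-fold higher in the knockout (7.69). The 0 h values stand for an estimated 4.0 and 2.0 fragments, so ratios without the added 1 have no useful precision. The genotypes differed by −0.13 at 24 h on the log2 scale, where the middle 50% of all genes kept by a 1 FPKM filter lay between −0.20 and 0.10. No near-identical copy of Arg1 was found.

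Arg2, the mitochondrial arginase (ENSMUSG00000021125, chromosome 12, 79130777 to 79156301, + strand), had the opposite pattern at a far lower level. At 0 h it stood at 0.86 FPKM (WT) and 2.93 (knockout), and at 24 h at 0.30 and 1.06. Both 24 h values were below the 0 h value of the same genotype, and both knockout values were above WT. At 0 h Arg2 was listed above Arg1 in each genotype, and at 24 h far below it. On the scale of FPKM + 1, Arg2 was 2.11-fold higher in the knockout than in WT at 0 h (log2 1.08) and 1.59-fold higher at 24 h (0.67). Without the added 1 the ratios were 3.41 and 3.57. These values rest on an estimated 27.0 and 84.5 fragments at 0 h, and 8.9 and 30.5 at 24 h. With a pseudocount of 5 the log2 differences between genotypes came to 0.44 at 0 h and 0.19 at 24 h. With a pseudocount of 0.1 they came to 1.66 and 1.55. Exons of Arg2 share 285 of their 1428 bases (20.0%) with Vti1b on the opposite strand, and the sources used here do not say whether counting used strand. Vti1b stood at 31.3, 34.8, 29.8 and 24.6 FPKM, and its part in the Arg2 values was not tested.

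Slc7a2 (ENSMUSG00000031596, chromosome 8, 40862396 to 40922308, + strand) encodes CAT2, a carrier that brings arginine and other cationic amino acids into the cell. At 0 h its values were 0.38 FPKM (WT) and 0.59 (knockout), and at 24 h they were 20.8 and 21. Exons of Slc7a2 share 6.95% of their bases with Gm26584 on the opposite strand, a gene at 0.07 FPKM or less. The 24 h libraries were both high and nearly level, with a genotype difference of 0.02 on the log2 scale. Over 24 h the carrier was 15.8-fold higher in WT (3.98) and 13.8-fold higher in the knockout (3.79) on the scale of FPKM + 1.

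**Figure D1:**
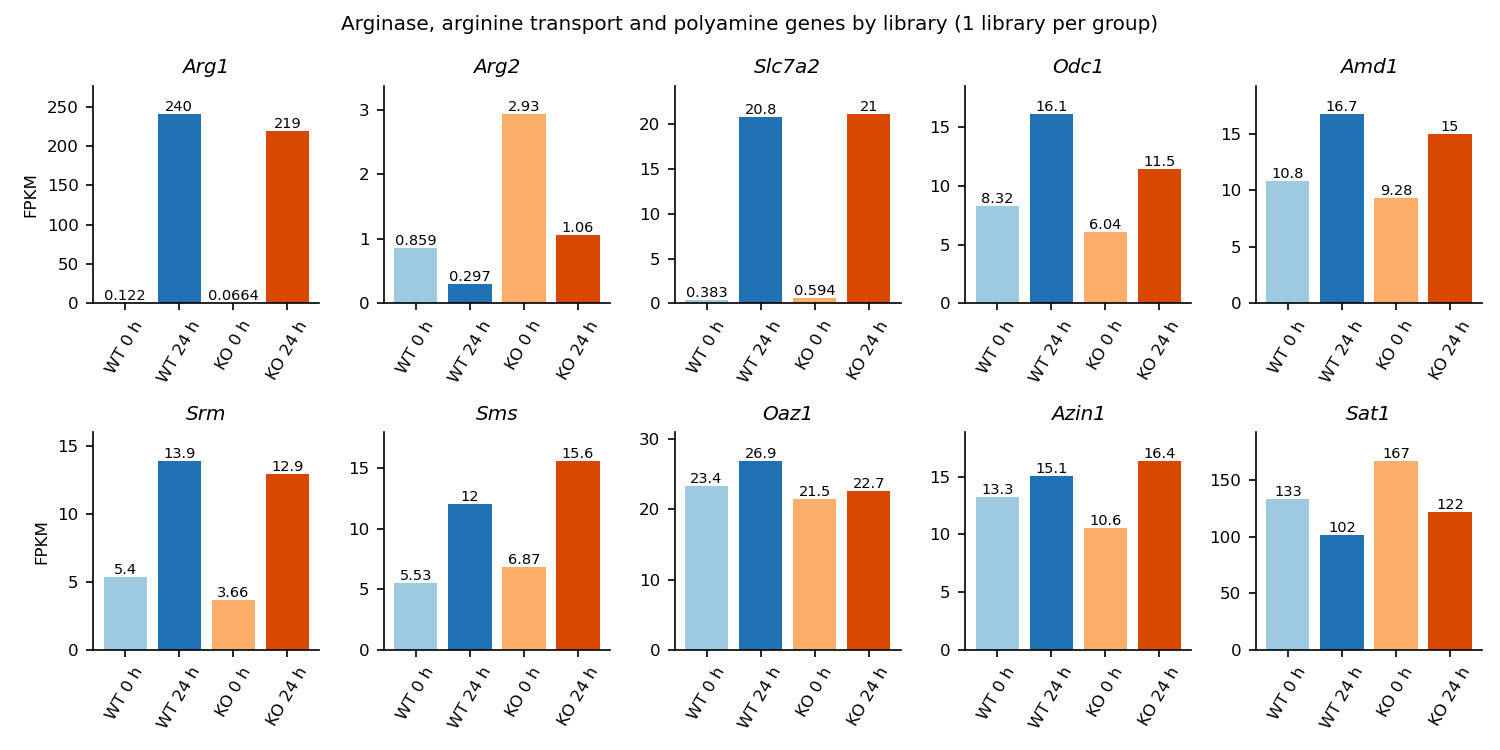
FPKM of the 10 genes in each library, 1 bar per library, with bars starting at 0 and a separate axis for each gene. Arg1 and Slc7a2 were near 0 at 0 h in both genotypes, while Arg2 and Sat1 were higher in the knockout than in WT at each time and lower at 24 h than at 0 h.

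The genes that build polyamines were all higher at 24 h than at 0 h in both genotypes, at levels between 3.66 and 16.7 FPKM. Srm, the spermidine synthase gene (chromosome 4, 148591503 to 148594993, + strand), went from 5.4 to 13.9 FPKM in WT and from 3.66 to 12.9 in the knockout. Its log2 differences of 1.22 and 1.58 were the largest of the 4 synthesis genes. Sms, the spermine synthase gene (chromosome X, 157443855 to 157492287, − strand), went from 5.53 to 12 FPKM in WT and from 6.87 to 15.6 in the knockout. Its log2 difference on FPKM + 1 was 1.00 in WT, with the unrounded value just under 2-fold, and 1.08 in the knockout. Without the added 1 the ratios were 2.18 and 2.27. Set side by side, Sms stood at 1.02 and 0.87 times Srm in WT and at 1.88 and 1.21 times Srm in the knockout. With copies added to both genes these ratios were 1.62 and 1.35 in WT and 3.02 and 1.88 in the knockout, in the same order of genotypes.

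Odc1, the gene of ornithine decarboxylase (chromosome 12, 17544794 to 17551505, + strand), was measured at 8.32 and 16.1 FPKM in WT and at 6.04 and 11.5 in the knockout. It was within 2-fold over 24 h in each genotype (0.87 and 0.82), and the knockout value was the lower one at both times (−0.41 and −0.45). With the near-identical copies described below added, these differences came to −0.07 and −0.12. Amd1, whose product makes the aminopropyl donor from S-adenosylmethionine (chromosome 10, 40287458 to 40302186, − strand), stood at 10.8 and 16.7 FPKM in WT and at 9.28 and 15.0 in the knockout. Its differences over 24 h were 0.59 and 0.63, and those between genotypes −0.20 at 0 h and −0.15 at 24 h.

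The regulators of ornithine decarboxylase moved less. Oaz1 was at 23.4, 26.9, 21.5 and 22.7 FPKM, which gives 0.19 over 24 h in WT and 0.08 in the knockout. Azin1 encodes antizyme inhibitor, a relative of ornithine decarboxylase without its activity that binds antizyme (chromosome 15, 38487427 to 38519266, − strand). It stood at 13.3 and 15.1 FPKM in WT and at 10.6 and 16.4 in the knockout, so that its difference over 24 h was 0.17 in WT and 0.58 in the knockout. The knockout was lower at 0 h and higher at 24 h. Exons of Azin1 share 5.72% of their bases with the antisense gene Gm49077, which was not analysed here. Odc1 stood at 0.63 times Azin1 in WT at 0 h and 1.06 times at 24 h, and the knockout ratios were 0.57 and 0.70. With the copies of Odc1 added they became 0.89 and 1.49 in WT and 1.05 and 1.27 in the knockout, so that the genotypes changed order at 0 h.

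Sat1 encodes spermidine/spermine acetyltransferase, which marks polyamines for export or oxidation (chromosome X, 155213132 to 155216449, − strand). It was the highest of the 10 genes at 0 h and second to Arg1 at 24 h. Its values were 133 and 102 FPKM in WT and 167 and 122 in the knockout. Sat1 was lower at 24 h in both genotypes (−0.39 and −0.45) and higher in the knockout at both times (0.32 and 0.26), all within 2-fold. Set against Odc1, Sat1 was 16.0 times as high in WT at 0 h and 6.34 times at 24 h, with knockout ratios of 27.7 and 10.6. With copies added to both genes the ratios were 11.4 and 4.55 in WT and 15.1 and 5.94 in the knockout.

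**Figure D2:**
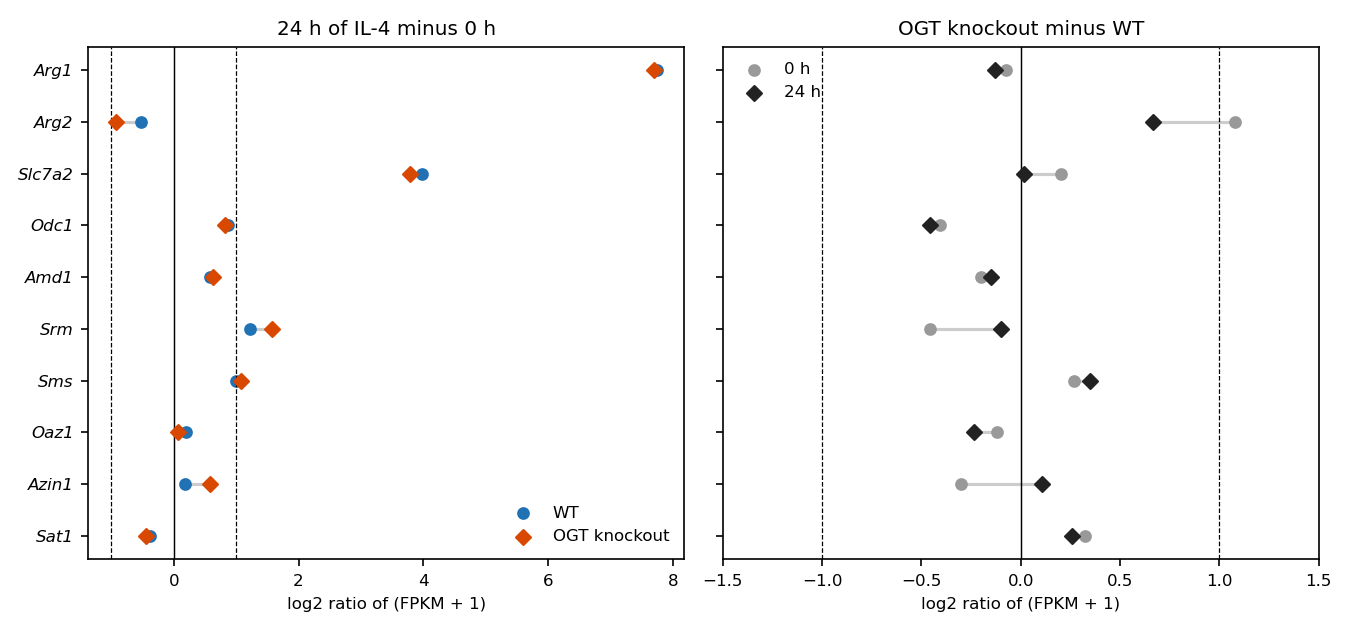
Log2 ratios of FPKM + 1 for each gene, on the left over 24 h in WT (circles) and knockout (diamonds), on the right for knockout against WT at 0 h (circles) and 24 h (diamonds), with dashed lines at 2-fold. Arg1 and Slc7a2 lie far to the right in both genotypes, and Arg2 at 0 h is the single point past 2-fold between genotypes.

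A gene was kept in a comparison if any of its libraries reached 1 FPKM, and 2-fold was counted on the scale of FPKM + 1. Of the 9 members kept in WT, 3 were at least 2-fold higher at 24 h in WT (Arg1, Slc7a2 and Srm), against 4.77% of the 11689 genes kept in all (11% in either direction). In the knockout these and Sms made 4 of 10, against 5.16% of 11577 (11.1% in either direction). In WT Sms was just short of 2-fold on this scale. None of the members was 2-fold lower in either genotype, where 6.26% and 5.99% of all genes were. Arg1 and Slc7a2 passed the filter only through their 24 h values and had to differ. The members were chosen with earlier results of these data known, so their counts beside the shares of all genes are a description only. The median over the genes kept was 0.87 in WT and 0.73 in the knockout, and 0.02 and 0.03 over all genes kept.

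Between genotypes, Arg2 was the 1 of 8 genes kept at 0 h that passed 2-fold, upward, and it was kept only through its knockout value. Of 11480 genes, 0.88% passed upward, 0.871% downward and 1.75% either way. At 24 h none of 10 did, where 1.46% of 11302 genes passed, 0.832% upward and 0.628% downward. The medians were −0.16 at 0 h and −0.04 at 24 h, beside −0.05 and −0.05 over all genes. No gene of the 10 had a knockout response that differed from the WT response by 2-fold, as 2.43% of 12002 genes did (1.27% upward and 1.17% downward). The nearest were Arg2 (−0.41), Azin1 (0.41) and Srm (0.36). The value of Arg2 depended on the added 1, and was −0.11 with a pseudocount of 0.1. Without a pseudocount, Arg2 at 24 h was 0.35 times its 0 h value in WT and 0.36 times in the knockout.

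**Figure D3:**
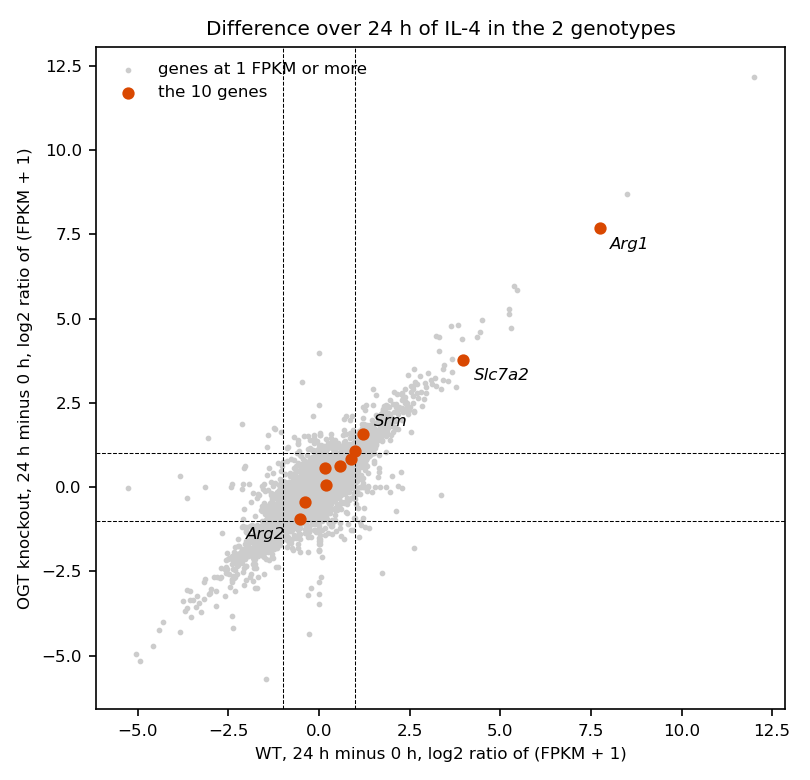
Log2 ratio of FPKM + 1 over 24 h in WT (horizontal axis) and in the knockout (vertical axis), with all kept genes in grey, the 10 genes in orange and dashed lines at 2-fold. Arg1, at 7.75 and 7.69, and Slc7a2, at 3.98 and 3.79, lie near equal values on both axes, and no orange point passes 2-fold downward.

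Near-identical copies were sought for all 10 genes as annotated transcripts with at least 90% identity over at least 50% of their own length, and the added FPKM of copies of unequal length are only a rough total. Oaz1-ps was listed at 72.7, 80.2, 62.2 and 70.5 FPKM, so that Oaz1 held only 24.3% to 25.7% of the summed value in every library. The sums were 96.0, 107.1, 83.7 and 93.2 FPKM, and they differed over 24 h by 0.16 in WT and 0.15 in the knockout, beside 0.19 and 0.08 for Oaz1 alone. Sms-ps, on the X chromosome, is the same as Sms over all its 1101 bases. It was listed at 4.0, 7.25, 4.42 and 8.68 FPKM, the same order of libraries as Sms. Added together, Sms and its copies differed by 0.95 over 24 h in WT and by 1.03 in the knockout.

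Amd2, a second gene on chromosome 10 annotated without introns, matched 3188 of 3198 aligned bases of Amd1 and was at 2.71, 4.2, 2.34 and 3.53 FPKM. Amd1 held between 66.2% and 69.1% of the sum with its copies. For Odc1 the copies changed the comparison of genotypes. Odc1 held 70.8% and 71.3% of the sum in WT but 54.2% and 55.3% in the knockout, since the pseudogene Gm7993 on chromosome 5 was at 1.39 and 3.66 FPKM in WT and at 2.85 and 6.44 in the knockout. The sums were 11.7 and 22.5 FPKM in WT and 11.1 and 20.7 in the knockout. Their genotype differences were thus smaller than those of Odc1 alone at both times. Gm7993 matches Odc1 with 95.7% identity, below the 99.3% of Oaz1-ps, 100% of Sms-ps and 99.6% of Amd2 with their genes. Whether the fragments counted for Gm7993 came from Odc1 was not tested. The sources used here do not say how fragments matching both gene and copy were assigned.

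**Figure D4:**
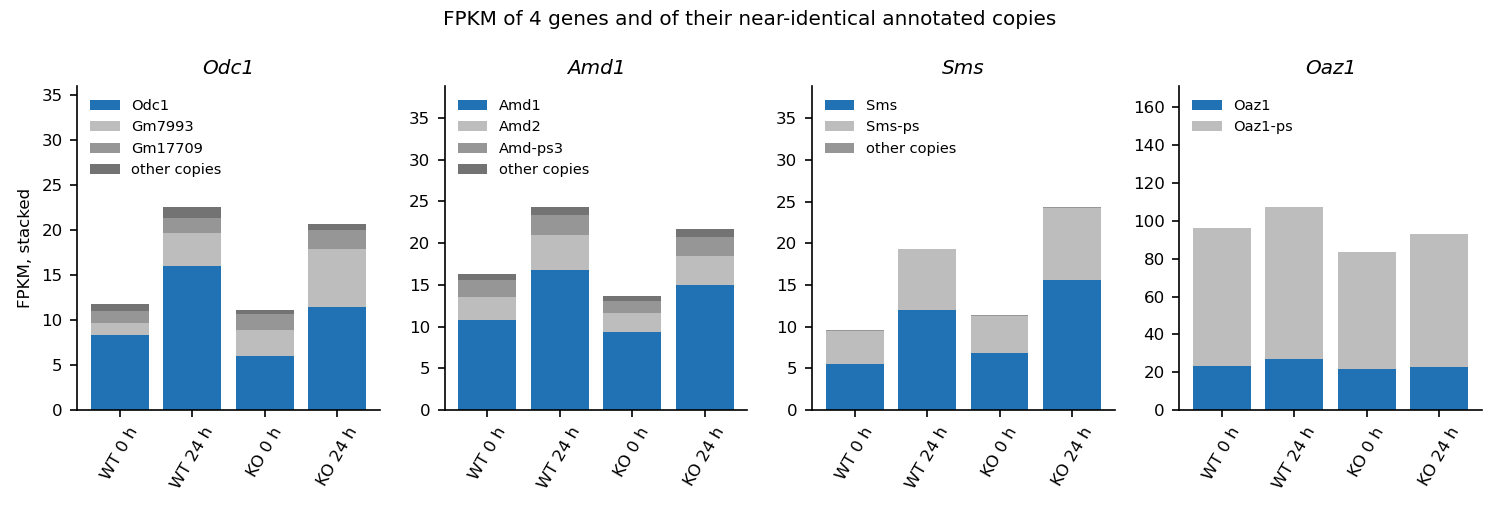
Stacked FPKM of Odc1, Amd1, Sms and Oaz1 (blue) and of their near-identical annotated copies (grey) in each library, with copies that never reach 1 FPKM pooled as other copies. Oaz1-ps makes up most of the Oaz1 bar in all 4 libraries, and the grey part of the Odc1 bar is larger in the knockout than in WT at the same time.

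The other genes of arginine and polyamine metabolism, 52 in 7 lists, moved in both directions. Of the 37 kept, 3 were 2-fold higher and 3 lower over 24 h in each genotype, where 4.77% and 6.26% of all genes were in WT and 5.16% and 5.99% in the knockout. Gatm, which uses arginine to start creatine synthesis, stood at 38.2 and 178 FPKM in WT and at 58.8 and 195 in the knockout (2.19 and 1.72). It alone among 7 kept genes of arginine use and recycling passed 2-fold. Nos2, the macrophage nitric oxide synthase that competes with arginase for arginine, was at 0.04 FPKM or less in every library and was named after its values were seen.

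Slc7a7, the light chain of an arginine exporter of the plasma membrane, went the other way from Slc7a2. It was at 14.4 and 4.15 FPKM in WT and at 11.1 and 2.90 in the knockout (−1.59 and −1.64). Of the 5 kept genes of the carrier list, Slc7a7 alone passed 2-fold. The highest gene of the carrier list, Slc3a2, which is not itself a carrier, stood at 64.7, 58.1, 72.3 and 55.9 FPKM. Among the 6 kept genes of the route from ornithine to proline and glutamate none passed 2-fold, and the highest, Oat, stood at 34.1, 44.5, 24.4 and 33.0 FPKM.

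Genes that oxidise polyamines were lower at 24 h, as Sat1 was. Smox, the spermine oxidase gene, stood at 7.35 and 3.24 FPKM in WT and at 5.64 and 2.31 in the knockout (−0.98 and −1.01). Paox, the gene of the oxidase acting on acetylated polyamines, was at 5.95 and 2.38 in WT and at 5.19 and 2.32 in the knockout (−1.04 and −0.90). On the scale of FPKM + 1 each thus passed 2-fold in 1 genotype and came close to it in the other. Without the added 1, Smox and Paox were both past 2-fold in each genotype. Oaz2, another antizyme gene and the highest of this list in every library, was at 7.63, 5.73, 13.1 and 8.82 FPKM, higher in the knockout at both times within 2-fold (0.71 and 0.55). Atp13a2, which carries polyamines out of the lysosome, was at 65.0 and 28.3 FPKM in WT and at 62.1 and 29.2 in the knockout (−1.17 and −1.06).

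Eif5a, the translation factor that carries hypusine, a residue made from spermidine, stood at 94.6 and 328 FPKM in WT and at 91.3 and 273 in the knockout (1.79 and 1.57). It alone among 4 genes of the hypusine list passed 2-fold. Of the 9 kept genes of the methionine cycle and salvage, Ahcy alone passed 2-fold over 24 h in each genotype, at 5.69 and 17.0 FPKM in WT and at 5.89 and 16.0 in the knockout (1.43 and 1.31). Between genotypes 1 of the 37 kept genes passed 2-fold at 24 h and none of 36 at 0 h. Of all genes kept, 1.46% passed at 24 h and 1.75% at 0 h.

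**Figure D5:**
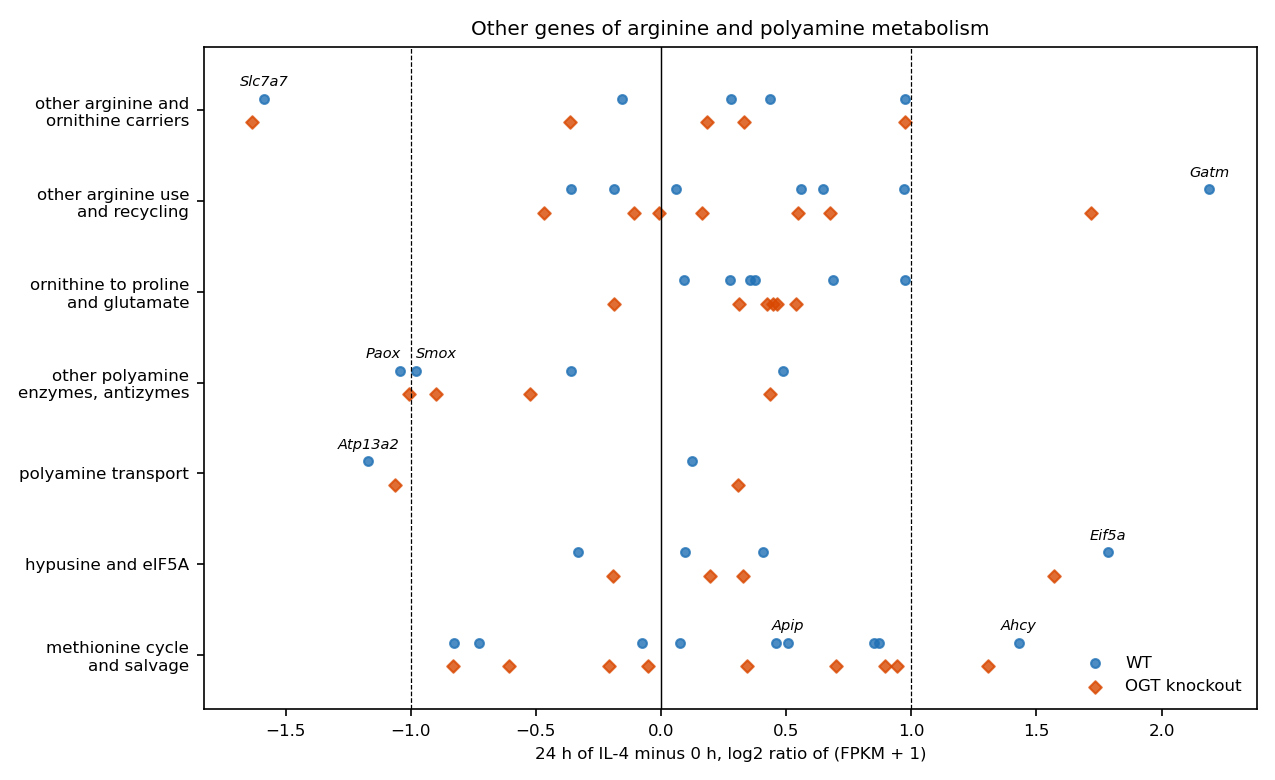
Log2 ratio of FPKM + 1 over 24 h for the kept genes of 7 lists of arginine and polyamine metabolism, with WT as circles and the knockout as diamonds, dashed lines at 2-fold and names on genes past 2-fold in any comparison. Gatm, Eif5a and Ahcy lie past 2-fold to the right in both genotypes, and Slc7a7 and Atp13a2 past 2-fold to the left.

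The genes most like 4 of the members were sought by the distance between log2 values of FPKM + 1 in the 4 libraries. Each gene was centred on its own mean, and the search covered 6554 genes (6555 for Arg2) that reached 5 FPKM in any library. With 4 libraries this distance is a weak measure. Nearest to Arg1 were Rnase2a, Il4i1 and Mgl2 (distances 0.96, 2.08 and 2.11). Nearest to Slc7a2 were Irf4, Klf4 and Tarm1 (0.33, 0.35 and 0.40), with Irf4 at 1.97, 46.0, 3.33 and 58.4 FPKM. Nearest to Arg2 were Cyp4f18, Nr4a1 and Flcn (0.08, 0.29 and 0.35), with Cyp4f18 at 10.7, 7.56, 23.1 and 12.4 FPKM. The added 1 lessens the differences of Arg2 (0.86, 0.30, 2.93 and 1.06 FPKM) far more than those of Cyp4f18. On FPKM alone the 2 genes are less alike than the distance implies. Nearest to Odc1 were Ell2, Cd300ld and Tmem206 (0.06, 0.09 and 0.09).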

How the data were processed

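RNA-seq values of 4 libraries were used as the authors deposited them, in FPKM, 1 library per group. The table names no unit, and FPKM was read from its values, whose totals differ between libraries. STAR and StringTie with GRCm38 (mm10) are named in the submitters' processing notes, with no versions. Symbols were found for 52403 genes, and 147 kept their identifier. Positions and transcripts came from GENCODE M21, counted from 1, and promoters from RefSeq (GRCm38.p6).

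Differences are log2 ratios of FPKM + 1. This scale understates differences of low genes. Genes that reached 1 FPKM in any library compared were kept, and 2-fold was the threshold. No p-value was computed. Fragments were estimated from the commonest product of FPKM and length among genes with 1 exon, and those of a gene from its longest coding transcript. The procedure was tested on simulated data, with set fold changes in genes at 5 FPKM or more and counting noise alone. That test does not cover lower values or variation between cultures. Copies were found with BLAST 2.17.0. The alternatives were other pseudocounts, filters and scalings, and, chosen after seeing the data, adding the copies.

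The genes named are the 10 members, other pathway genes past 2-fold at 5 FPKM or more, the highest gene of a list, and the 3 nearest patterns of 4 members, leaving out predicted genes and small RNAs. Copies and overlapping genes were named by sequence or position, and the GC box, TATA-like and CCAAT motifs were added after the promoters were seen. The members and lists were chosen with earlier results of these data known.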

Additional observations from a re-analysis of the deposited data

Results flagged for a closer look

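Azin1 was singled out because its genotype difference had opposite signs at the 2 times. The knockout was lower at 0 h (log2 −0.30, 10.6 against 13.3 FPKM) and higher at 24 h (0.11, 16.4 against 15.1 FPKM). The change of the difference was 0.41. With 1 library per group this was not tested, and 0.11 lies close to the upper quartile of all genes at 24 h (0.10).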

How the results depend on the processing

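The 2-fold calls of Arg1 and Slc7a2 over 24 h held in both genotypes under all 7 alternatives, and no called difference of the 10 genes changed sign under any of them. The other filters and the added copies could not alter those calls of Arg1 and Slc7a2. Both genes were above 5 FPKM at 24 h, and neither has a copy with a value above 0. Between genotypes at 0 h the count of members past 2-fold, which was 1 (Arg2), was 0 with a pseudocount of 5 and 0 with a filter at 5 FPKM, which leaves Arg2 out. At 24 h it was 1 in place of 0 with a pseudocount of 0.1 (Arg2, 1.55) and with FPKM rescaled to a total of 1000000 per library (1.12). Arg2 also passed 2-fold downward over 24 h in the knockout under those settings (−1.39 and −1.27). Srm in WT (0.86) and Sms in the knockout (0.80) came under 2-fold with a pseudocount of 5. Sms in WT passed it at 1.11 with a pseudocount of 0.1 and at 1.02 with that total. Of the other pathway genes, 6 passed 2-fold over 24 h in each genotype. With a pseudocount of 0.1, and again with that total, 12 did in WT (8 higher, 4 lower) and 10 in the knockout (6 higher, 4 lower). With a pseudocount of 5 the knockout count was 3. Between genotypes the count was 1 in place of 0 at 0 h with a pseudocount of 0.1, and 0 in place of 1 at 24 h with a pseudocount of 5. That total raises all values, so the added 1 weighs less. No paired analysis was possible because each group has 1 library and the labels give no replicate numbers. Depth limits Arg1 at 0 h and Arg2 in all libraries most.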

Other observations

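In the methionine cycle and salvage genes, which supply the aminopropyl donor and recover what polyamine synthesis leaves over, the knockout library at 24 h stood apart for some genes. Mat2a, the gene of the S-adenosylmethionine synthetase of most tissues, was at 26.9 and 28.3 FPKM in WT and at 26.7 and 52.2 in the knockout. Its genotype difference was −0.01 at 0 h and 0.86 at 24 h on the log2 scale of FPKM + 1. Apip, which encodes an enzyme of methionine salvage, had 10.3 and 15.1 FPKM in WT and 7.84 and 6.66 in the knockout. It was the 1 pathway gene of 37 kept past 2-fold between genotypes at 24 h, lower in the knockout (−1.07). Of all genes kept, 1.46% passed 2-fold in that comparison. The knockout response differed from the WT response by 0.87 for Mat2a and −0.72 for Apip, both within 2-fold.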
